A study of Sus scrofa with 12 samples.

Results

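ANKRD1 and TMOD4 are genes of the contractile apparatus of striated muscle, and they were followed here through the growth of a pig back muscle. The members are every probe set that the platform annotation assigns to either symbol, which gave 2 genes of the 5765 measured and 3 of the 23999 probe sets on the array after controls were set aside. ANKRD1 has 2 probe sets, Ssc.10429.1.S1_at and Ssc.7678.1.A1_at, and TMOD4 has 1, Ssc.13816.1.S1_at. All 3 were among the 16166 probe sets kept by the filter on low values, which asked for a value above the 40th percentile of its own array on at least 3 arrays. Both genes were selected on their measured difference between 3 days after birth and the fetus, and TMOD4 also on its overall difference across the stages, so those differences are given as descriptions with no test.

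The samples were longissimus dorsi, a long back muscle, taken from Meishan pigs, a Chinese breed, with no genetic alteration or experimental treatment named in the labels. The groups were fetuses at 65 days post coitus (dpc), piglets at 3 days after birth, and pigs at 60 and 120 days after birth, with 3 biological replicates and 3 Affymetrix porcine arrays per stage, 12 in all. Fetuses sharing a sow counted as 1 individual, and the labels give neither sex nor litter after birth. The series was designed to follow gene expression over the development of skeletal muscle. A value is the deposited intensity of a probe set on a linear scale. Fitted differences are on the log2(intensity + 21) scale, which understates the differences of dim probe sets.

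ANKRD1, also called cardiac ankyrin repeat protein or CARP, is a muscle ankyrin repeat protein. It binds the N2A segment of titin, the giant spring protein of the sarcomere, and it also occurs in the nucleus, where it acts as a cofactor of transcription. Its gene is best known from heart, is induced by stretch, load and injury in skeletal muscle, and is widely used as a target gene of the YAP and TAZ coactivators and their TEAD partners. TMOD4 is the tropomodulin of skeletal muscle. Tropomodulins cap the pointed ends of actin thin filaments in the middle of the sarcomere and bind tropomyosin there, while the related leiomodins start or lengthen filaments at the same end.

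ANKRD1 had its lowest mean in the fetus, its highest means at 3 and 60 days, and an intermediate mean at 120 days. The probe set with the higher mean stands for the gene in what follows. It read 143, 194 and 717 on the fetal arrays, 3243, 4111 and 7646 at 3 days, 1947, 5431 and 5389 at 60 days, and 662, 1581 and 2508 at 120 days. Every array at 3 and 60 days lay above every fetal array, whereas the lowest array at 120 days fell below the highest fetal one. The fetal mean was 351 ± 318 (SD, n = 3), and the means after birth were 5000.2 ± 2333 at 3 days, 4256 ± 1999 at 60 days and 1584 ± 923 at 120 days. Ordered by mean, the stages ran fetus, 120 days, 60 days and 3 days, and each neighbouring pair in that order overlapped in its arrays. In whole muscle, fewer cells of a type and less RNA per cell cannot be told apart.

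TMOD4 had its lowest mean in the fetus and a higher mean at each later stage. It read 108, 180 and 133 on the fetal arrays, 2618, 2557 and 1889 at 3 days, 2859, 2334 and 3961 at 60 days, and 4389, 4135 and 4167 at 120 days. Every fetal array lay below every array after birth, and all 3 arrays at 120 days lay above every array of the other stages. The fetal mean was 141 ± 36.3 (SD, n = 3), and the means after birth were 2355 ± 404 at 3 days, 3051 ± 830 at 60 days and 4230.3 ± 139 at 120 days. Of the neighbouring stages in this order, only 3 and 60 days overlapped.

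**Figure D1:**
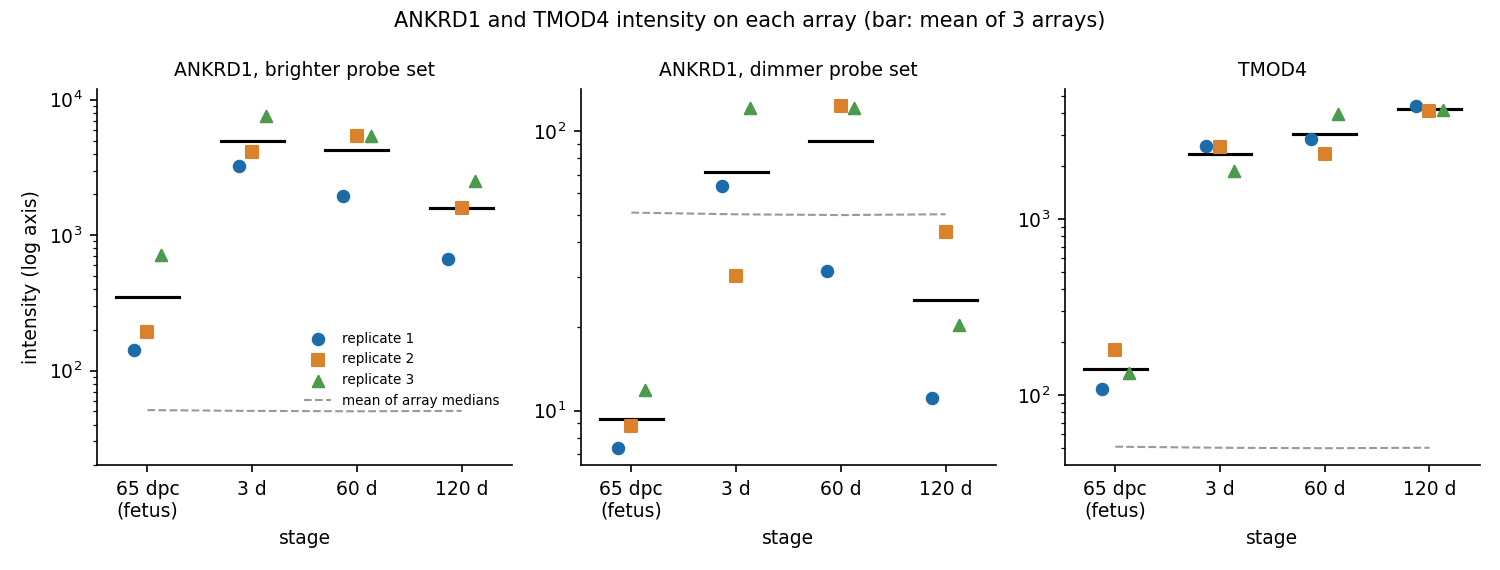
Intensity of the 3 probe sets on each of the 12 arrays by stage, on log axes whose ranges differ between panels. Points are arrays, bars are means of 3 arrays and the dashed line is the mean of the array medians. The brighter ANKRD1 probe set has its highest means at 3 and 60 days, and TMOD4 has its highest mean at 120 days, where its 3 arrays lie between 4135 and 4389.

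Across birth both genes differed by similar amounts, and this is the contrast that chose them. The mean of ANKRD1 was 14.2 times as high at 3 days as in the fetus, with a log2 difference of 3.99 ± 0.62 (SE). For TMOD4 the mean was 16.8 times as high at 3 days, with a log2 difference of 3.89 ± 0.23 (SE). Both genes had 3-day arrays wholly above the fetal ones, as did 26.7% of the 16166 probe sets, and they ranked 6th and 7th among them by size of the rise. At 60 days against the fetus the log2 difference was 3.71 ± 0.62 (SE) for ANKRD1 and 4.24 ± 0.23 (SE) for TMOD4, again with arrays that did not overlap, as for 22.9% of probe sets in that direction. At 120 days against the fetus it was 2.25 ± 0.62 (SE) for ANKRD1, with overlapping arrays, and 4.74 ± 0.23 (SE) for TMOD4, which ranked 4th and whose arrays lay above the fetal ones, as for 30% of probe sets. These comparisons share the fetal arrays.

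After birth the stage means of the 2 genes ran in opposite directions. The ANKRD1 mean was 3.16-fold lower at 120 days than at 3 days, a log2 difference of -1.74 ± 0.62 (SE), with every 120-day array below every 3-day array. Of all probe sets 15.7% had 120-day arrays wholly below the 3-day ones. The 3-day arrays chose the gene, so its differences from 3 days are given as descriptions. For TMOD4 the mean at 120 days was 1.80 times that at 3 days, a log2 difference of 0.85 ± 0.23 (SE), with all 120-day arrays above the 3-day ones, as for 16% of probe sets. The TMOD4 value is a description as well.

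Between those ages the arrays of ANKRD1 overlapped at each step. At 60 against 3 days its log2 difference was -0.28 ± 0.62 (SE). Its sign turned when one array was left out, to 0.076 without replicate 3 of 3 days and to 0.21 without replicate 1 of 60 days. At 120 against 60 days, the step that uses none of the arrays that chose it, the ANKRD1 mean was 2.69-fold lower. The log2 difference was -1.46 ± 0.62 (SE) and did not pass the test (adjusted p = 0.774 by limma, unadjusted p = 0.0362, 95% interval -2.82 to -0.11). The groups overlapped since the 60-day replicate 1 at 1947 lay below the 120-day replicate 3 at 2508. Only 0.0619% of the 16166 probe sets had a lower or equal log2 difference at this step. Across the array no probe set passed limma at 120 against 60 days, so the background is 0%, and there were 1021 probe sets at an unadjusted p under 0.05.

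TMOD4 had a log2 difference of 0.35 ± 0.23 (SE) at 60 against 3 days, where its arrays overlapped. At 120 against 60 days the difference was 0.50 ± 0.23 (SE), with every 120-day array above every 60-day array, as for 6.33% of probe sets. Those later steps of TMOD4 are descriptions too, because the overall difference across stages chose the gene.

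**Figure D2:**
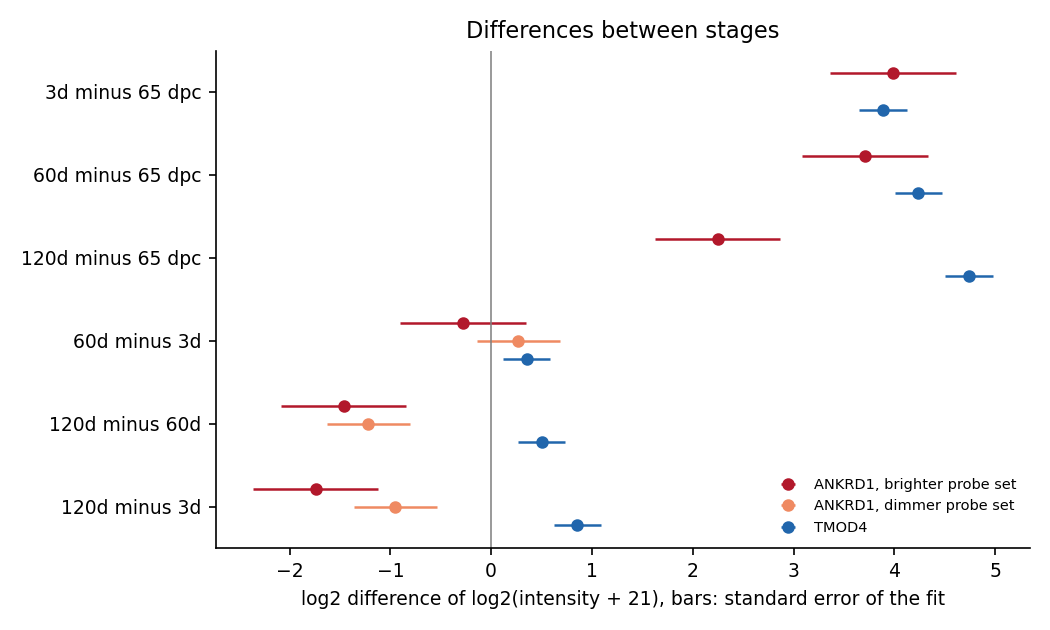
Log2 differences between stages for the 3 probe sets, later stage minus earlier, with the standard error of the fit as bars. The dimmer ANKRD1 probe set is left out of the contrasts with the fetus, where its fetal values lie below the 40th percentile of their arrays. Its 120-day values of 11.1 and 20.2 lie below that percentile as well. At 120 against 60 days and 120 against 3 days both ANKRD1 probe sets are below 0 and TMOD4 is above it.

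The other ANKRD1 probe set, Ssc.7678.1.A1_at, had much dimmer signal. It read 7.34, 8.81 and 11.9 in the fetus, 63.8, 30.2 and 121 at 3 days, 31.6, 123 and 121 at 60 days, and 11.1, 43.5 and 20.2 at 120 days. All 3 fetal arrays, 2 of 3 at 120 days and 1 each at 3 and 60 days lay below the 40th percentile of their arrays, which was between 33.9 and 37.3. The fetal values and those 2 at 120 days therefore give no measured level. This probe set had a log2 difference of -1.22 ± 0.41 (SE) at 120 against 60 days, with arrays that overlapped. That value is a description too, since the probe set passed the filter mainly through its 3-day and 60-day arrays. At 60 against 3 days its sign was opposite to that of the brighter one, at 0.27 ± 0.41 (SE), and at 120 against 3 days it was -0.95 ± 0.41 (SE), both as descriptions. Over the 12 arrays the log2 values of both probe sets correlated with r = 0.855, and their deviations from the stage means had the same sign on 11 of 12 arrays. These arrays share their stages and RNA and include the low values, and the correlation is a description.

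ANKRD1 varied more among replicates than nearly all probe sets. Its residual SD on the log2 scale was 0.919, at percentile 99.0 of the 16166, against a median of 0.234. The other ANKRD1 probe set had 0.614 (percentile 96.1), and TMOD4 had 0.282 (percentile 63.5). Within one stage the highest ANKRD1 array was 5.03 times the lowest among fetal arrays, 2.36 times at 3 days, 2.79 times at 60 days and 3.79 times at 120 days. The coefficient of variation of TMOD4 was 25.9% for the fetal arrays, 17.2% at 3 days, 27.2% at 60 days and 3.28% at 120 days.

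The spread of ANKRD1 moved with some array measures. Replicate 1 was the lowest ANKRD1 array in 4 of 4 stages and replicate 3 the highest in 3 of 4. The 3-prime to 5-prime ratio of the actin control probe sets, a measure of RNA and labelling quality, was lowest on replicate 3 at every stage, with 2.32 on the fetal array, 2.58 at 3 days, 3.85 at 60 days and 4.17 at 120 days. A second pair of actin control probe sets was also lowest on replicate 3 in the fetus (0.829), at 3 days (0.863) and at 120 days (0.898). At 60 days its lowest ratio was 0.880 on replicate 1, against 0.895 on replicate 3. Its ratios lay between 0.829 and 0.908 on all arrays. Over the 12 arrays the deviations of ANKRD1 from its stage means correlated with those of the first ratio at r = -0.598, where 3.72% of probe sets had a lower or equal r, while TMOD4 gave r = -0.050. By stage the first ratio had a fetal mean of 2.45 ± 0.168 (SD, n = 3) and means after birth of 3.61 ± 1.06 at 3 days, 5.10 ± 1.17 at 60 days and 5.08 ± 0.896 at 120 days. Its part in the results was not tested.

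**Figure D3:**
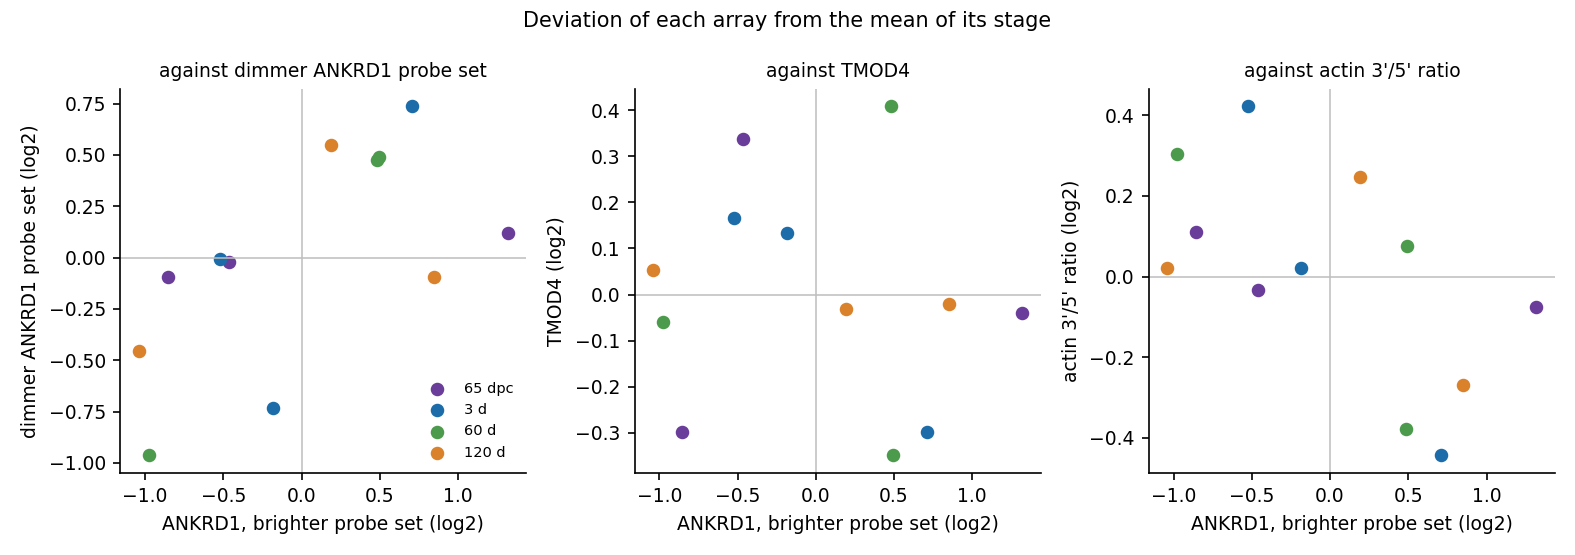
Deviation of each array from the mean of its stage, on the log2 scale, for ANKRD1 against the other measures named on the axes. The ANKRD1 probe sets deviate in the same direction on 11 of 12 arrays, and the deviations of ANKRD1 and TMOD4 have the same sign on 3 of 12.

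Fetal replicate 3, the highest fetal ANKRD1 array at 717, also stood apart in a sum of immune markers. The summed intensity of the 5 measured immune markers was 189, 213 and 1075 on the fetal arrays, 326, 329 and 775 at 3 days, 373, 384 and 426 at 60 days, and 371, 300.2 and 596 at 120 days. Replicate 3 was the highest at every stage, and its part in the ANKRD1 values was not tested. Without fetal replicate 3 the ANKRD1 log2 difference at 3 days against the fetus was 4.65. TMOD4 on that array, at 133, lay between the other fetal values.

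The other measured tropomodulins and leiomodins had smaller log2 differences across birth than TMOD4. The list has 7 genes, of which 4 were measured, and the 3 besides TMOD4 had a median log2 difference of 0.30 at 3 days against the fetus, against 0.066 over all 5765 genes. TMOD1, the tropomodulin of heart, red cells and skeletal muscle, read 1640, 1614 and 1223 at 3 days, against 1049, 1632 and 730 in the fetus. Its arrays overlapped, and the log2 difference was 0.45 ± 0.26 (SE, adjusted p = 0.187). TMOD1 passed without fetal replicate 2 (adjusted p = 0.0292) and with array weights (adjusted p = 0.00816). TMOD3, a tropomodulin of many cell types, read 110, 117 and 117 at 3 days, against 142, 173 and 222 in the fetus. TMOD3 fell, with a log2 difference of -0.54 ± 0.20 (SE, adjusted p = 0.0405), as did 19.1% of genes. This call was lost under quantile normalization (adjusted p = 0.124), without fetal replicate 2 or 3, any 3-day replicate, or 120-day replicate 1 or 2, and on only the 6 arrays compared (0.0649), with adjusted p between 0.0514 and 0.137.

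LMOD3, a leiomodin of skeletal muscle whose loss causes nemaline myopathy in people, read 2037, 2313 and 2079 at 3 days, against 1240, 2439 and 1715 in the fetus. The groups overlapped, with a log2 difference of 0.30 ± 0.23 (SE, adjusted p = 0.310), and LMOD3 passed with array weights (adjusted p = 0.00416). Neither TMOD1, TMOD3 nor LMOD3 passed the test at the later steps, where their log2 differences lay between -0.24 and 0.30. TMOD4 was not tested against them, since it was chosen for its difference. In the muscle ankyrin repeat list ANKRD1 was the only one of 3 genes measured here.

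**Figure D4:**
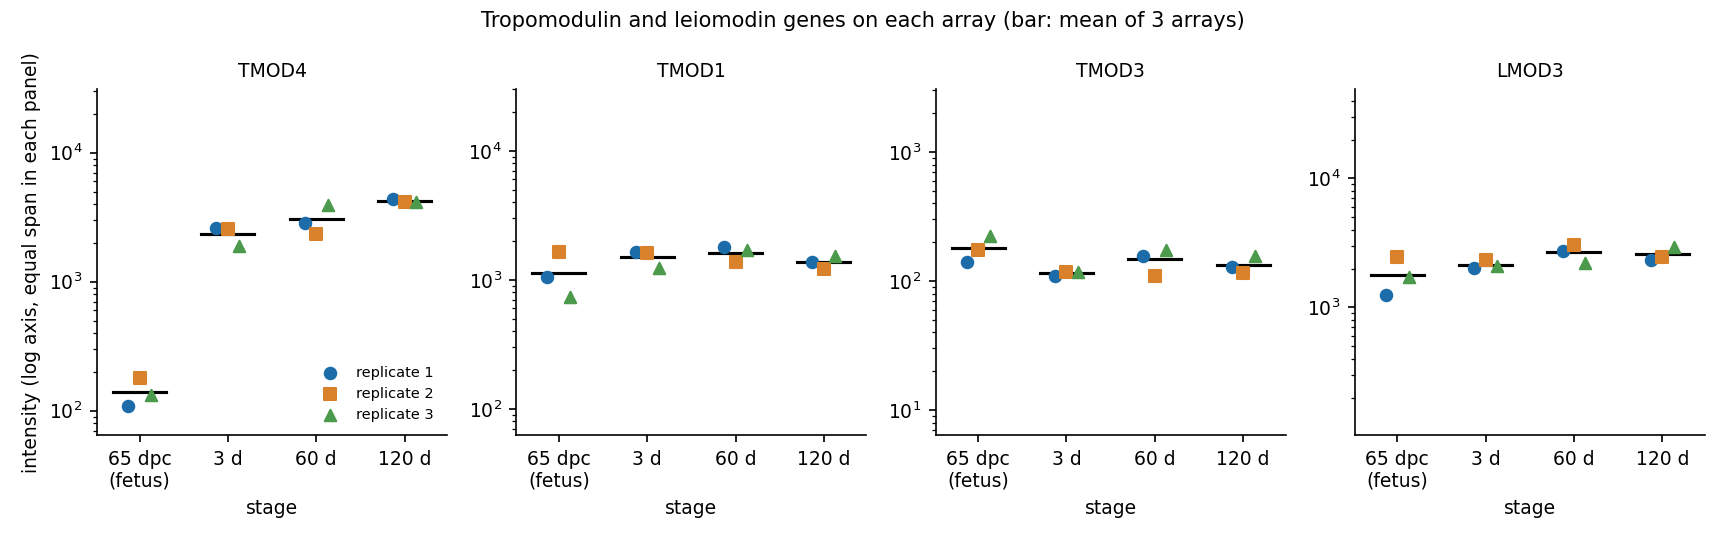
Intensity of TMOD4, TMOD1, TMOD3 and LMOD3 on each array by stage, on log axes of equal span. Points are arrays and bars are means of 3 arrays. TMOD4 means are 141 in the fetus and 2355 at 3 days, while the stage means of TMOD1 stay between 1137 and 1625.

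Genes of the thin filament, which TMOD4 caps, were more often higher than lower across birth. Of 21 measured genes of 25 listed, 11 rose and 2 fell at 3 days against the fetus, and 8 did not pass the test, against 22.7% and 19.1% of all genes. The list median was 0.68 on the log2 scale, against 0.066 over all genes. Centring on the hybridization controls instead, which moved the median of all probe sets to -0.32 and the split of called probe sets to 1109 higher and 5552 lower, against 3286 and 3659 without it, left 6 higher and 2 lower in this list. XIRP1 and XIRP2, actin-binding Xin repeat proteins of muscle attachment sites, rose by 2.03 ± 0.65 (SE, adjusted p = 0.0250) and 1.35 ± 0.24 (SE, adjusted p = 9.04e-04). The XIRP1 call was lost without fetal replicate 1 or 2 (adjusted p = 0.0651 each), 3-day replicate 2 (0.0873) or 3-day replicate 3 (0.0625). NRAP, a nebulin-related anchoring protein of myofibril ends, rose by 1.32 ± 0.31 (SE, adjusted p = 0.00478). TPM3 and TPM4, tropomyosins that lie along actin, fell, with log2 differences of -1.04 ± 0.29 (SE, adjusted p = 0.0134) and -1.15 ± 0.30 (SE, adjusted p = 0.00873). At 60 against 3 days only ACTC1, the cardiac and fetal alpha actin, passed in this list, with -3.01 ± 0.40 (SE, adjusted p = 0.00506), where 0.798% of genes fell.

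The titin, Z-disc and I-band list, which holds the neighbours of ANKRD1 in the sarcomere, had 18 of 34 genes measured. At 3 days against the fetus 12 rose, 1 fell and 5 did not pass, against 22.7% higher and 19.1% lower among all genes. The list median was 0.81, against 0.066 over all genes. FHL3, a LIM-domain protein, rose by 2.95 ± 0.36 (SE, adjusted p = 9.38e-05). BAG3, a co-chaperone of the Z-disc, rose by 2.83 ± 0.27 (SE, adjusted p = 1.68e-05), PDLIM3, an actinin-binding Z-disc protein, by 2.60 ± 0.20 (SE, adjusted p = 5.42e-06), and CRYAB, a small heat-shock protein that binds titin, by 2.35 ± 0.39 (SE, adjusted p = 6.75e-04). FHL2, a LIM-domain protein that binds titin in heart, fell, with a log2 difference of -1.54 ± 0.34 (SE, adjusted p = 0.00342).

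TTN itself, the titin gene, averaged 4737 ± 608 at 3 days and 3314 ± 588 in the fetus (SD, n = 3 each), a rise of 0.52 ± 0.16 (SE, adjusted p = 0.0194). The TTN call was lost under centring on the hybridization controls (adjusted p = 0.366), under quantile normalization (adjusted p = 0.110) and without fetal replicate 1 or 3 or 3-day replicate 1 or 2 (adjusted p between 0.0551 and 0.0749). CAPN3, the muscle calpain that is anchored on titin at the N2A segment, as ANKRD1 is, rose by 0.72 ± 0.20 (SE, adjusted p = 0.0134) at 3 days, a call lost without fetal replicate 1 (adjusted p = 0.0511) and under centring on the hybridization controls (adjusted p = 0.197). CAPN3 read 1525, 1641 and 1270 at 60 days, against 684, 690 and 619 at 3 days. That was a rise of 1.12 ± 0.20 (SE, adjusted p = 0.0208), the only call of its list at this step, where 0.711% of genes rose. Without replicate 1 of 3 days the adjusted p of CAPN3 was 0.0829, without replicate 2 of 3 days 0.0740, without replicate 1 of 60 days 0.0591, on only the 6 arrays compared 0.0814, and under that centring 0.0541. At 120 against 60 days no gene of the thin filament or titin list passed.

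Genes of the thick filament and M-band had 6 of 13 measured genes higher and 1 lower at 3 days than in the fetus, against 22.7% higher and 19.1% lower among all genes. The list median was 0.51, against 0.066. MYH2, a fast myosin heavy chain, rose by 4.69 ± 0.18 (SE, adjusted p = 5.70e-08), and MYL4, a myosin light chain of embryonic muscle and atrium, fell, with -5.08 ± 0.22 (SE, adjusted p = 7.00e-08). No gene of this list passed at the steps to 60 and to 120 days.

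The YAP/TAZ-TEAD list holds factors of that pathway and target genes other than ANKRD1, and 11 of its 27 genes were measured, YAP1 not among them. At 3 days against the fetus 1 rose and 5 fell, against 22.7% higher and 19.1% lower among all genes, and the list median was -0.39, against 0.066. VGLL3 and VGLL4, which bind TEAD factors, fell, with log2 differences of -1.94 ± 0.27 (SE, adjusted p = 1.99e-04) and -1.36 ± 0.30 (SE, adjusted p = 0.00378). TGFB2, a growth factor, had -1.87 ± 0.21 (SE, adjusted p = 5.46e-05) and CRIM1, a membrane protein that binds growth factors, -1.03 ± 0.23 (SE, adjusted p = 0.00335), and both fell. TEAD4, a TEAD factor of muscle, rose by 1.02 ± 0.22 (SE, adjusted p = 0.00350). Because the list mixes factors and targets, its counts and median give no measure of pathway activity.

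CYR61, a secreted matrix protein and common readout of YAP, was picked after its values were seen. It read 72.8, 87.8 and 65.9 at 120 days, against 320, 290 and 174 at 60 days. All 120-day arrays lay below the 60-day ones, as for 7.52% of probe sets, with a log2 difference of -1.51 ± 0.27 (SE, adjusted p = 0.369). The list median at this step was 0.0097, against -0.0025 over all genes. LATS2, of the same list, also had every 120-day array below every 60-day array, with -0.16 ± 0.14 (SE, adjusted p = 0.864). None of the 11 measured genes passed, CYR61 included, as no probe set on the array passed at this step. CYR61 at 3 days read 187, 158 and 151, against 167, 221 and 371 in the fetus, which overlapped.

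Among 7 measured muscle transcription regulators of 22 listed, 1 rose and 2 fell across birth, against 22.7% higher and 19.1% lower among all genes, so these shares are near the background. The list median was -0.32, against 0.066. ABRA, an actin-binding activator of serum response factor signalling, read 1355, 1283 and 593 at 3 days, against 234, 253 and 274 in the fetus, and rose by 1.91 ± 0.52 (SE, adjusted p = 0.0112). ABRA was 803, 2557 and 2892 at 60 days and 627, 1874 and 600 at 120 days, with overlap between these stages and no call. MYF5, an early myogenic factor, fell, with a log2 difference of -2.47 ± 0.34 (SE, adjusted p = 1.87e-04). MEF2A, a myogenic transcription factor, was the other call, with -0.57 ± 0.21 (SE, adjusted p = 0.0422), and was lost in 12 of 25 alternatives.

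**Figure D5:**
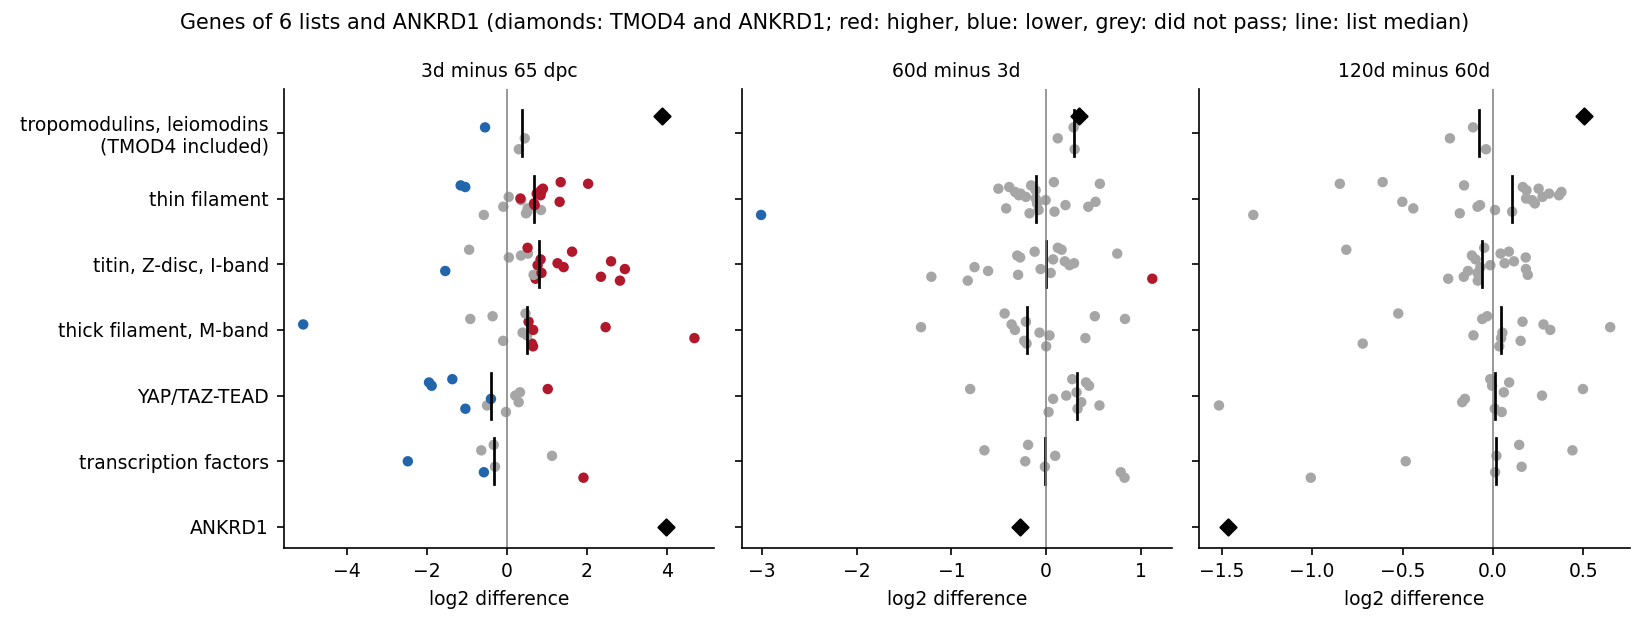
Log2 differences of the measured genes of 6 lists and of ANKRD1 at the 3 adjacent steps, later stage minus earlier. Red and blue points passed the test as higher and lower, grey points did not, and black diamonds are TMOD4 and ANKRD1, which are shown without a call. The thin filament and titin lists have medians of 0.68 and 0.81 across birth, and no list has a called gene at 120 against 60 days.

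Markers of cell types were read beside these results. The summed intensity of skeletal muscle markers was 45765 to 49339 at 3 days, against 25162 to 36420 in the fetus, and 6 of 7 measured markers rose, against 22.7% of all genes. Centred on the hybridization controls 3 rose, where 1109 of all 16166 probe sets rose. Fibroblast markers summed to 3676 to 5687 at 3 days, against 12985 to 20727 in the fetus, with 6 of 8 lower, against 19.1% of all genes, among them POSTN, a matrix protein, at -3.52 ± 0.73 (SE, adjusted p = 0.00246). Endothelial markers had 1 of 11 higher and 1 lower, and each of these counts lay between 0 and 4 over the alternatives. Smooth muscle and pericyte markers had 1 of 7 higher and 1 lower. Immune markers had 1 of 5 higher, ITGAM, an integrin of myeloid cells, whose call (adjusted p = 0.0309) was lost in 8 of 23 alternatives, with adjusted p up to 0.827. The endothelial, smooth muscle and immune shares are below the background of 22.7% and 19.1% of all genes, and the part of any of these markers in the ANKRD1 and TMOD4 values was not tested.

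Cardiac markers matter here because ANKRD1 is best known from heart. Of 9 measured markers of 12 listed, 5 rose and TNNT2, a troponin T of heart and fetal muscle, was lower at 3 days, against 22.7% higher and 19.1% lower among all genes. Under centring on the hybridization controls 2 rose, where 1109 of all 16166 probe sets rose. RYR2, the calcium release channel of heart, was among the calls lost, in 10 of 24 alternatives. The markers summed to 10981 to 16726 at 3 days, against 12626 to 16600 in the fetus, and to 8991 to 10756 at 60 days and 10110 to 10517 at 120 days. Most of each sum came from ACTC1 and SLN. From the fetus to 120 days ACTC1 averaged 7306, 5117, 646 and 219, and SLN 4741, 7396, 8137 and 8872. The largest rises were PLN, by 1.42 ± 0.28 (SE, adjusted p = 0.00195), and NPPB, by 1.36 ± 0.17 (SE, adjusted p = 1.03e-04). NPPB averaged 109 ± 6.34 at 3 days and 29.8 ± 1.22 in the fetus (SD), the latter below the array medians. TNNI3, the cardiac troponin I that defines adult heart muscle, did not pass (adjusted p = 0.256). It averaged 44.6 ± 17.2 at 3 days and 32.0 ± 8.43 in the fetus, below the array medians. CASQ2, a calcium-storing calsequestrin, read 201, 69.2 and 55.7 at 60 days, against 1232, 874 and 634 at 3 days. CASQ2 fell, with a log2 difference of -2.97 ± 0.40 (SE, adjusted p = 0.00549), where 0.798% of genes fell.

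Between 120 and 3 days 6 of the 115 measured genes of these lists passed, where 1.99% of all genes rose and 2.79% fell. The share of calls in the lists is therefore near the background. ACTC1 fell, with a log2 difference of -4.33 ± 0.40 (SE, adjusted p = 4.62e-04), and CASQ2 fell, with -4.11 ± 0.40 (SE, adjusted p = 4.62e-04), and both calls held in every alternative tried. CFL2, the muscle cofilin, had -0.86 ± 0.21 (SE, adjusted p = 0.0413) and HSP90AA1, a chaperone of myosin folding, -0.92 ± 0.23 (SE, adjusted p = 0.0442). CAPN3 had 0.88 ± 0.20 (SE, adjusted p = 0.0318) and MEF2A 0.80 ± 0.21 (SE, adjusted p = 0.04999). Those 4 calls were lost with the replicate block and without any one of several arrays, with adjusted p up to 0.158 for CAPN3, 0.189 for CFL2, 0.175 for HSP90AA1 and 0.218 for MEF2A without 120-day replicate 1.

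The genes whose log2 values most resembled ANKRD1 over the 12 arrays, out of 5538 compared, were THAP4 (r = 0.943), XAB2 (r = 0.940), COX10, a heme synthesis enzyme of mitochondria (r = 0.936), PDK4, the kinase that inhibits pyruvate dehydrogenase (r = 0.927), PPME1 (r = 0.925) and ACADS, an enzyme of fatty acid oxidation (r = 0.922). PDK4 averaged 245 ± 213 on the fetal arrays, 3641 ± 1339 at 3 days, 4538 ± 405 at 60 days and 2594 ± 888 at 120 days (SD, n = 3 each). By deviations from stage means the nearest were IFIT2, an interferon-induced gene (r = 0.910), UFSP2 (r = 0.904), CALR, a chaperone of the endoplasmic reticulum (r = 0.900), and OGFR (r = 0.899). By log2 values over the 12 arrays OGFR had r = -0.198 with ANKRD1. None of these 10 is in the sarcomere lists, which hold few of the 5538 genes compared.

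For TMOD4 the nearest by log2 values were MYH2 (r = 0.990), PDLIM3 (r = 0.989), BUD23 (r = 0.988), PHGDH, an enzyme of serine synthesis (r = 0.986), MYOZ1, a Z-disc protein of fast fibres (r = 0.984), and COPS4 (r = 0.983). MYH2 averaged 205 ± 34.6 on the fetal arrays, 5828 ± 1245 at 3 days, 7669 ± 325 at 60 days and 7906 ± 53.0 at 120 days (SD, n = 3 each). By deviations from stage means the nearest were LONP1, a mitochondrial protease (r = 0.913), BCAT2, an enzyme of branched-chain amino acid breakdown (r = 0.909), TPM4 (r = 0.906) and POC5 (r = 0.904). By log2 values over the 12 arrays TPM4 had r = -0.817 with TMOD4. ANKRD1 and TMOD4 correlated with each other at r = 0.738 over the 12 arrays and at r = -0.697 over the 9 arrays after birth. All these r values are descriptions over arrays that share the 4 stages.

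In gene order along the pig genome, on the Sscrofa11.1 assembly and used for order only, TMOD4 lies between VPS72 and SCNM1. At 3 days against the fetus the nearest neighbours of TMOD4 had log2 differences of 0.37 ± 0.17 for VPS72 (SE, adjusted p = 0.101) and 0.39 ± 0.27 for SCNM1 (SE, adjusted p = 0.253). Of the 6 genes up to 3 places away, LYSMD1 rose by 1.28 ± 0.17 (SE, adjusted p = 1.74e-04) and PSMD4, a proteasome subunit, by 1.07 ± 0.27 (SE, adjusted p = 0.00749). At this step 22.7% of all genes rose. The remaining neighbours did not pass, with -0.06 ± 0.24 for PIP5K1A (SE, adjusted p = 0.858) and -0.35 ± 0.15 for TNFAIP8L2 (SE, adjusted p = 0.0751). Of the 6 neighbours of ANKRD1 only RPP30 was measured, with 0.11 ± 0.16 (SE, adjusted p = 0.608).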

How the data were processed

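Each deposited value is the intensity of a probe set on one array, on a linear scale, made with GCOS 1.4 per the submitters' processing notes. How background, summary and scaling were handled is not given in the sources used here. The arrays had medians between 49.1 and 52.6, and no further normalization was applied. Of 24123 probe sets 124 controls were set aside and 16166 (67.4%) passed the filter. Values were transformed as log2(intensity + 21), with the pseudocount of 21 set at their 25th percentile. All 12 arrays entered one limma fit with a variance trend, and two-sided tests carry Benjamini-Hochberg adjustment over the 16166 probe sets, with calls at an adjusted p under 0.05. The fit was tested on simulated data. The number of arrays limits the precision, and for replicates no separate litters are stated after birth.

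By GEO's platform annotation 10069 probe sets have 1 symbol, 198 have several and 13732 are unnamed here. A gene with several kept probe sets is represented by the one with the highest mean, which gave 5765 genes. The 13 gene lists hold 196 genes, of which 115 were measured. The members and lists were chosen with earlier results of these data known. Named were all members, both families, up to 4 called genes with the largest difference per list and step, genes called against their list, ACTA1 (not measured here), CASQ2, TTN, YAP1 and CAPN3, and the nearest genes by correlation. The genes called at 120 against 3 days, CYR61, TNNI3, the later values of ABRA, and the genomic neighbours were added after their values were seen. Alternatives were other pseudocounts (1 and 51), a stricter filter (60th percentile) or none, median centring, quantile normalization, centring on 9 hybridization controls, array weights, a replicate block, only the 6 arrays compared, and leaving out each array. Analyses ran in R 4.3.3 with limma 3.58.1, and figures in Python 3.11.15 with matplotlib 3.10.9.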

Additional observations from a re-analysis of the deposited data

How the results depend on the processing

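Leaving out each array in turn gave ANKRD1 log2 differences of 3.56 to 4.65 at 3 days against the fetus, -0.54 to 0.21 at 60 against 3 days, -1.95 to -0.94 at 120 against 60 days, -2.17 to -1.22 at 120 against 3 days, 3.28 to 4.37 at 60 days against the fetus and 1.82 to 2.90 at 120 days against the fetus. TMOD4 gave 3.74 to 4.06, 0.15 to 0.53, 0.33 to 0.71, 0.70 to 0.94, 4.04 to 4.41 and 4.59 to 4.91 in the same order. The ANKRD1 difference at 60 against 3 days turned positive without 3-day replicate 3 (0.076), without 60-day replicate 1 (0.21), without that array and fetal replicate 2 together (0.21), with array weights (0.058) and on the other probe set (0.27). ANKRD1 at 120 against 3 days, a description, was -1.68 with array weights and -1.74 with the replicate block. At 120 against 60 days the adjusted p of ANKRD1 ranged over the alternatives between 0.484 and 0.995.

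On the other ANKRD1 probe set the differences with the fetus were 1.49, 1.76 and 0.54 at 3, 60 and 120 days, against fetal values too low to give a measured level. Centring on the hybridization controls gave 3.57, 3.82 and 4.27 for TMOD4, and array weights gave 4.18 and 4.56 at 3 and 60 days. That centring left 7 higher genes in the titin list and 2 in the thick filament list at 3 days against the fetus, where it called 1109 of 16166 probe sets higher. At 60 against 3 days it gave 57 higher and 139 lower probe sets, against 127 and 120 without it, and at 120 against 3 days 155 and 489, against 371 and 343. Probe sets called at 60 against 3 days numbered 247, but 926 with array weights, 161 with the replicate block, 114 without the pair of arrays and 46 on the 6 arrays compared. At 120 against 60 days 1 was called with no filter. At 120 against 3 days 714 were called, but 4756 with array weights, 1166 without the pair and 1581 on the 6 arrays. Leaving out arrays gave 4966 to 7167, 66 to 308, 0 to 5, 184 to 873, 4824 to 6454 and 6153 to 8061 calls in the order above. Same-numbered arrays of different stages correlated in their deviations with r from -0.424 to 0.297, over 0.1 in 8 of 18 pairs, and differently numbered ones with r from -0.408 to 0.646, over 0.1 in 11 of 36. The labels name no pairing, and whether a number marks a shared batch was not tested. Of 52 called combinations of named gene and step, 35 were called in every alternative and 0 reversed. Among those lost in some were CAPN3, CKM, MYL2, TMOD3, TTN, XIRP1, MEF2A and, at 60 against 3 days, ACTC1 on the 6 arrays (adjusted p = 0.0593). The causes were not tested.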
